A study of Mus musculus with 4 samples.

Results

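The genes described here are 32 mouse genes of cholesterol and fatty acid metabolism, taken as a set list of symbols and matched to the count table by gene ID (32 of 32 found, among 52636 genes in all). They comprise 12 enzymes of the mevalonate and sterol synthesis pathway, 6 regulators of the sterol response or sterol carriers, 3 genes of sterol efflux, 5 of fatty acid synthesis and 6 of fatty acid oxidation. RNA was sequenced from sorted CD4+ regulatory T cells with bright CD25 of 7-week-old C57BL/6 mice in 4 libraries. The Vav1R63W mice (2 libraries) bear a variant allele of Vav1, a signalling protein downstream of the T cell receptor. The Vav1R63WThemis1-T-/- mice (2 libraries) bear it too and are labelled as lacking Themis1 in T cells, and their libraries are called labelled double mutant here. The driver of the deletion, and whether a library holds 1 animal or a pool, are not given in the sources used here, so the spread between libraries may be technical.

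Cells make cholesterol from acetyl-CoA through the mevalonate pathway, which also supplies the prenyl groups that anchor small GTPases to membranes. When sterols in the endoplasmic reticulum run low, SCAP carries the SREBP transcription factors to the Golgi for cleavage, and the released SREBPs switch on the genes of sterol and fatty acid synthesis, whereas INSIG proteins hold them back. Activated T cells are known to raise this programme for membrane growth, and regulatory T cells are known to draw on the mevalonate pathway and on fatty acid oxidation.

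Between 13963670 and 15953194 reads per library were assigned to genes. Themis, the gene deleted in the second group, had 283 and 97 reads in Vav1R63W replicates 2 and 3. In the libraries labelled double mutant it had 685 reads in replicate 2 and 0 in replicate 3. The count of replicate 2 goes against its label, so every direction below is a direction between labels. In that replicate 3, 15.4% of tested genes with over 100 reads in some library had at most 10, so its 0 is not proof of its label. The counts are per gene and do not show which exons the reads cover. Markers of regulatory T cells were present in every library: Foxp3, their lineage transcription factor, ranged from 636 to 1014 CPM (counts per 1000000 reads assigned to genes) and Il2ra, which encodes CD25, from 223 to 325 CPM. All 7 monocyte and macrophage markers had 0 reads in all 4 libraries, as did 4 of 7 B cell markers, among them Ms4a1, Pax5 and Cd22, and 5 of 6 adipocyte and hepatocyte markers, among them Adipoq and Plin1. Of the others, Fabp4 had 59 reads (4.23 CPM) in the library labelled double mutant, replicate 3, and 0 elsewhere, Cd79b ranged from 35.5 to 63.6 CPM and Cd79a from 0 to 9.64 CPM. The summed level of the B cell list, to which Ighm adds most, was 1179 and 1303 CPM in Vav1R63W cells against 1312 and 1370 CPM in the others. Summed levels ranged from 0 to 14.1 CPM for dendritic cell markers, from 19.3 to 38.5 for CD8 T cell markers, from 0.0716 to 38.0 for NK cell markers and from 0 to 8.65 for erythroid markers. The part of other cells in the results below was not tested, and in bulk RNA a level set by fewer cells cannot be told apart from less RNA per cell.

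SREBPs bind sterol regulatory elements and act together with NF-Y, which binds CCAAT boxes, and with Sp1, which binds GC boxes. Promoters of 26 of the 32 genes were matched by symbol in RefSeq (GRCm38.p6), each from 250 bases before the transcription start to 50 after it. They were searched on both strands for TCACNCCAC, the core of the sterol regulatory element, for CCAAT and for GGGCGG. TCACNCCAC and CCAAT have the letters CCA in common, and a match of CCAAT can overlap its own reverse complement ATTGG, as it does in Fasn. CCAAT was found for 9 of 9 sterol synthesis enzymes, for 4 of 5 regulators, for 2 of 4 genes of fatty acid synthesis, for 1 of 6 genes of fatty acid oxidation and for 0 of 2 efflux genes. In all it was found for 16 of 26 genes (61.5%), against 41.1% of 27025 genes with a promoter in RefSeq and 43.0% of the 7515 of these that were tested for expression here. GGGCGG was found for 21 of 26 genes (80.8%), against 38.2% and 70.1%. The sterol element core was found for Hmgcs1 alone (3.85%), against 1.44% and 1.41%. A gene with several starts counted once if any of them held the motif, and a match is a run of letters, not a measured binding site. Only exact matches within these bases were counted, so a gene without a match may still hold a differing or more distant element.

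The upstream 250 bases of 4 promoters are shown, 5′ to 3′ on the strand of the gene. Hmgcs1 is shown as the gene with a sterol element core, Mvd as the sterol enzyme with the largest fitted fold change, Msmo1 as the sterol enzyme with the highest level in any library, and Acly as the member with the smallest p. Capitals mark CCAAT or ATTGG in the first 3, in Hmgcs1 also TCACCCCAC, and in Acly, where no CCAAT lay upstream of the start, GGGCGG or CCGCCC.
Hmgcs1, chr13:119690101-119690350, plus strand: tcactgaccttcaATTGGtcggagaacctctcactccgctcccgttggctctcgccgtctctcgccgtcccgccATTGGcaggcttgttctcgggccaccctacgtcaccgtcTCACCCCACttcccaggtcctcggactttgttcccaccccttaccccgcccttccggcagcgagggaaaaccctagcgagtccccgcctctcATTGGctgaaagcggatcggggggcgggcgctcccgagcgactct
Mvd, chr8:122443423-122443672, minus strand: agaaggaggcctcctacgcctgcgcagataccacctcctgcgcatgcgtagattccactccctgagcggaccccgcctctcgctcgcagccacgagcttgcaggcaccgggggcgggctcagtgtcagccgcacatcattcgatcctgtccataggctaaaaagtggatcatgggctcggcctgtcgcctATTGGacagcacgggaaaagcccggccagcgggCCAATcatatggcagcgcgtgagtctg
Msmo1, chr8:64733579-64733828, minus strand: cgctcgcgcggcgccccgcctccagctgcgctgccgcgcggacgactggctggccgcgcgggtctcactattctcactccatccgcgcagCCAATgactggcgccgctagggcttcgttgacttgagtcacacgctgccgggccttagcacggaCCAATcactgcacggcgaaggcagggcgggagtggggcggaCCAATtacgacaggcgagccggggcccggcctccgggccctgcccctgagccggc
Acly, chr11:100528001-100528250, minus strand: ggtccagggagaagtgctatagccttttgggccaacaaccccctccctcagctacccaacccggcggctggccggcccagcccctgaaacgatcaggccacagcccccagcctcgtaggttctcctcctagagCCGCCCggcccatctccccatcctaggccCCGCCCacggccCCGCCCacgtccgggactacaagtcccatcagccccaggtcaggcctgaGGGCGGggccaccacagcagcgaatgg
In Hmgcs1 the sterol element core began at -137, counted in bases from the start, and the upstream CCAAT matches at -237, -176 and -45. In Mvd the CCAAT matches began at -60 and -27 and in Msmo1 at -160, -96 and -55. In Acly the GC boxes began at -117, -88, -76 and -27.

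**Figure D1:**
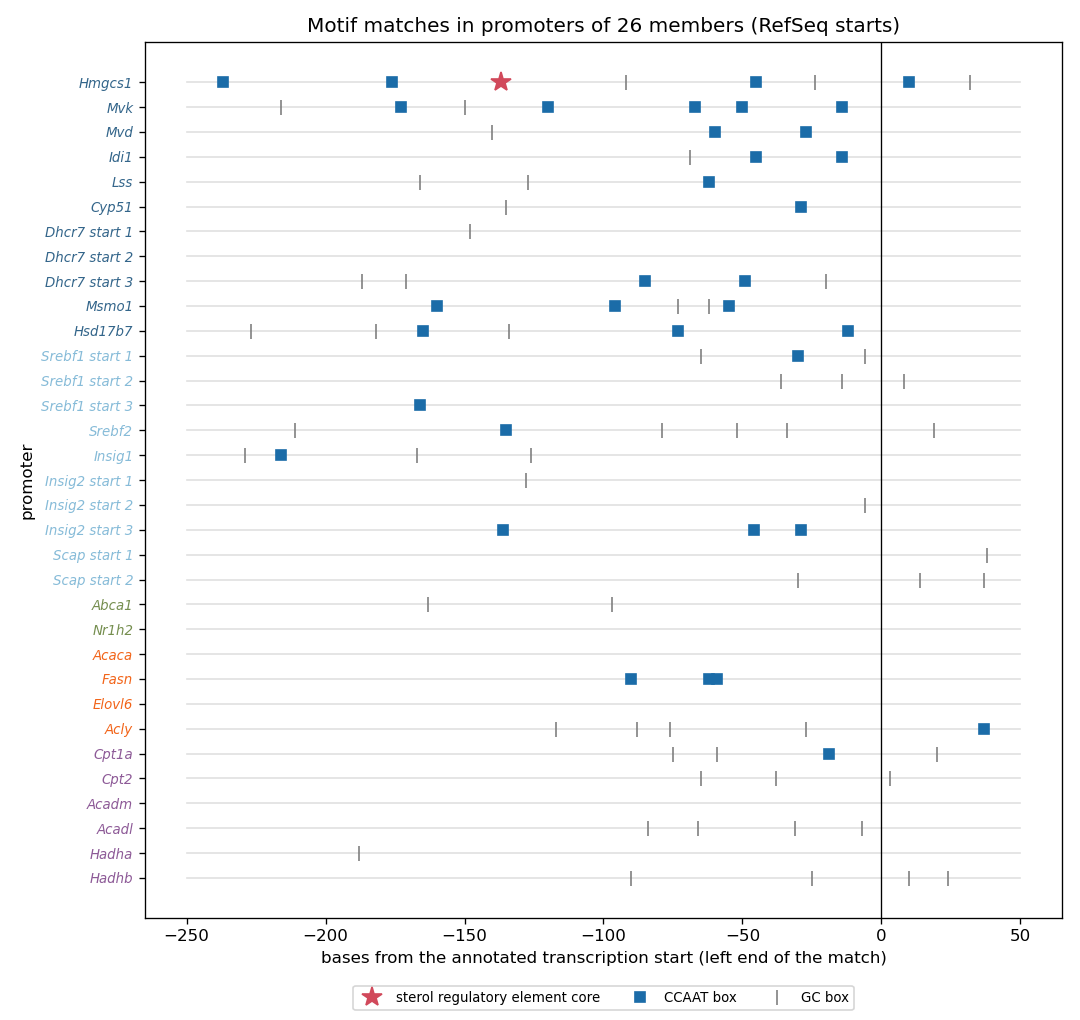
Positions of motif matches in the promoters of 26 genes; the x axis is bases from the annotated transcription start, each row is 1 start, label colours separate the 5 groups of genes, and symbols mark the sterol element core (star), CCAAT (square) and GC boxes (tick). CCAAT squares appear in at least 1 row of each of the 9 sterol synthesis enzymes, and the single star is in Hmgcs1, at -137.

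None of the 12 sterol synthesis enzymes passed the edgeR test across all genes (adjusted p = 1.000 for each of the 9 that met its read filter). That test called 0% of 10216 genes, so its 0 calls among the members are read against the same 0; at an unadjusted p under 0.05 it held 4.98% of all genes and 0 of the 9 enzymes. Fitted fold changes of the 9, given as labelled double mutant over Vav1R63W throughout, ran from -0.47 to 1.14 on the log2 scale, 6 positive and 3 negative, with a median of 0.27. The summed level of the 12 enzymes was 617 and 422 CPM in Vav1R63W replicates 2 and 3, against 538 and 653 CPM in those labelled double mutant, replicates 2 and 3. The groups overlapped in this sum.

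The first steps lead from acetyl-CoA units to isoprenoids. Hmgcs1 (ENSMUSG00000093930), which makes HMG-CoA, had 675 reads in Vav1R63W replicate 2 and 2 in replicate 3, against 693 and 80 in the libraries labelled double mutant, replicates 2 and 3. Its level was high in both replicates 2 and low in both replicates 3, a gap within each group far wider than the fitted log2 fold change of 0.05 ± 2.37 (SE). An antisense gene, Gm48342, overlaps 12.1% of its exon length, and reads in such an overlap are left out when strand is ignored. Mvk, mevalonate kinase, was at 21.2 and 12.1 CPM against 14.6 and 40.0 CPM. Its groups overlapped.

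Mvd (ENSMUSG00000006517; GRCm38 chromosome 8, 122433601 to 122443422, minus strand), which decarboxylates mevalonate diphosphate to isopentenyl diphosphate, had 351 and 400 reads in Vav1R63W replicates 2 and 3, against 769 and 923 in those labelled double mutant. These were 25.1 and 27.8 CPM against 48.2 and 66.1 CPM. Both libraries of the second group lay above both of the first. The log2 fold change was 1.14 ± 0.54 (SE; edgeR unadjusted p = 0.0952, adjusted p = 1.000), and the adjusted p was 0.291 in the authors' deposited table. With replicate 2 of the second group left out the log2 fold change was 1.37 (edgeR adjusted p = 0.540).

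Idi1, which isomerises isopentenyl diphosphate, was at 12.7 and 22.5 CPM against 25.8 and 16.3 CPM, with overlapping groups. Fdps, farnesyl diphosphate synthase, had only 3, 3, 3 and 11 reads and was not tested. Of the 50-base stretches of its longest coding transcript, 86.4% also occur in transcripts of 8 other annotated genes. Among these are processed pseudogenes and Gm43738, a protein-coding gene that overlaps 26.7% of the exon length of Fdps. The files count reads that match several places in a summary line and for no gene, and the part this plays in the low count of Fdps was not tested. For Idi1 the shared part was 30.5%.

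The committed sterol steps differed in how steady they were. Fdft1, squalene synthase, was at 71.4 and 128 CPM in Vav1R63W cells against 82.6 and 101 CPM in the others, and 30.7% of its 50-base stretches occur in transcripts of the overlapping Ctsb or of a pseudogene, Gm6781. Sqle, squalene epoxidase, was at 93.5 and 87.0 CPM against 61.2 and 75.4 CPM. Both libraries labelled double mutant lay below both others for Sqle, with a log2 fold change of -0.37 ± 0.33 (SE; adjusted p by edgeR = 1.000).

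Lss, lanosterol synthase, had 314 reads in Vav1R63W replicate 2 and 0 in each of the other 3 libraries, where a count of 0 allows up to 0.208, 0.188 and 0.215 CPM by counting error. Hsd17b7, a ketosteroid reductase of the pathway, had 215 reads in that same library, 2 in Vav1R63W replicate 3 and 0 in both libraries labelled double mutant. Neither reached the minimum count of the edgeR test in 2 libraries, as its filter required. DESeq2 called Lss lower (adjusted p = 7.06e-06) among the 1.88% of genes it called, although the value of Lss comes from a single library and the other Vav1R63W library also had 0 reads. Hsd17b7 did not pass with DESeq2 (adjusted p = 0.274).

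After lanosterol, Cyp51, the sterol 14-demethylase, was at 127 and 46.0 CPM in Vav1R63W replicates 2 and 3, against 141 and 81.0 CPM in those labelled double mutant. As for Hmgcs1, replicate 2 was the higher library in each group. Msmo1 (ENSMUSG00000031604), the sterol C4-methyl oxidase, was at 148 and 72.2 CPM against 102 and 245 CPM, a log2 fold change of 0.70 ± 0.61 (SE; adjusted p by edgeR = 1.000). Its highest value belonged to the library labelled double mutant, replicate 3, and without that library the log2 fold change was -0.11. Dhcr7, which catalyses the last step to cholesterol, was at 32.3 and 25.8 CPM against 19.1 and 22.1 CPM, groups that did not overlap, with an adjusted p of 1.000 by edgeR.

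For both SREBP genes the groups overlapped. Srebf1 (ENSMUSG00000020538), which drives fatty acid synthesis above all, had 736 and 1457 reads in Vav1R63W replicates 2 and 3, against 1856 and 922 in those labelled double mutant. These were 52.6 and 101 CPM against 116 and 66.0 CPM, so each group had a high and a low library, and the high one was replicate 3 in the first group and replicate 2 in the second. Its log2 fold change was 0.26 ± 0.52 (SE; adjusted p by edgeR = 1.000), and -0.18 without the library labelled double mutant, replicate 2. The counts do not separate its SREBP-1a and SREBP-1c transcripts. Srebf2 (ENSMUSG00000022463), which drives sterol synthesis, was at 88.2 and 107 CPM against 98.4 and 60.7 CPM, a log2 fold change of -0.28 ± 0.38 (SE; adjusted p by edgeR = 1.000). On the log2(CPM + 1) scale the difference between group means was, for both factors, smaller than the larger gap between libraries of a group. For Srebf2 the difference of -0.32 exceeded in size the Vav1R63W gap of 0.27, but not the gap of 0.69 in the other group.

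Of the SREBP escort and retention proteins, Scap (ENSMUSG00000032485) was at 10.5 and 16.4 CPM in Vav1R63W cells against 6.14 and 5.94 CPM in the libraries labelled double mutant. The groups did not overlap, and the log2 fold change was -1.13 ± 1.38 (SE; adjusted p by edgeR = 1.000) on 83 to 236 reads. Of its exon length, 13.2% overlaps another annotated gene. Insig1, itself an SREBP target and the feedback brake on SCAP, was at 26.4 and 38.1 CPM against 20.1 and 29.2 CPM. Insig2, its partner in that role, was at 35.4 and 41.0 CPM against 52.1 and 17.9 CPM. Both INSIG genes overlapped between the groups. Stard4, a carrier of cholesterol between membranes, was at 19.8 and 20.8 CPM against 20.9 and 29.1 CPM, groups that only just did not overlap.

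Nr1h2 (ENSMUSG00000060601; GRCm38 chromosome 7, 44549616 to 44553951, minus strand) encodes LXR-beta, the oxysterol receptor that switches on sterol efflux. It had 1149 and 1174 reads in Vav1R63W replicates 2 and 3, against 766 and 541 in those labelled double mutant, which is 82.0 and 81.5 CPM against 48.0 and 38.7 CPM. Both libraries of the second group were below both of the first, and the Vav1R63W pair differed little. The log2 fold change was -0.89 ± 0.39 (SE; edgeR unadjusted p = 0.0761, adjusted p = 1.000). DESeq2 gave an adjusted p of 0.686 and an adjusted p of 0.226 stood in the authors' deposited table, so Nr1h2 passed in none of these tests. With the library labelled double mutant, replicate 2, left out, the log2 fold change was -1.03.

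The efflux pumps are known LXR targets. Abcg1 (ENSMUSG00000024030), which passes cholesterol to lipoproteins, was at 81.1 and 92.2 CPM in Vav1R63W cells against 125 and 95.2 CPM in the libraries labelled double mutant, a log2 fold change of 0.37 ± 0.31 (SE; adjusted p by edgeR = 1.000). Its groups did not overlap, although 92.2 and 95.2 CPM lie close together. Abca1, which loads lipid-poor apolipoprotein, had 381 and 46 reads against 566 and 1. Here replicate 2 was the high library in each group, and the fitted log2 fold change was 0.24 ± 2.53 (SE).

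**Figure D2:**
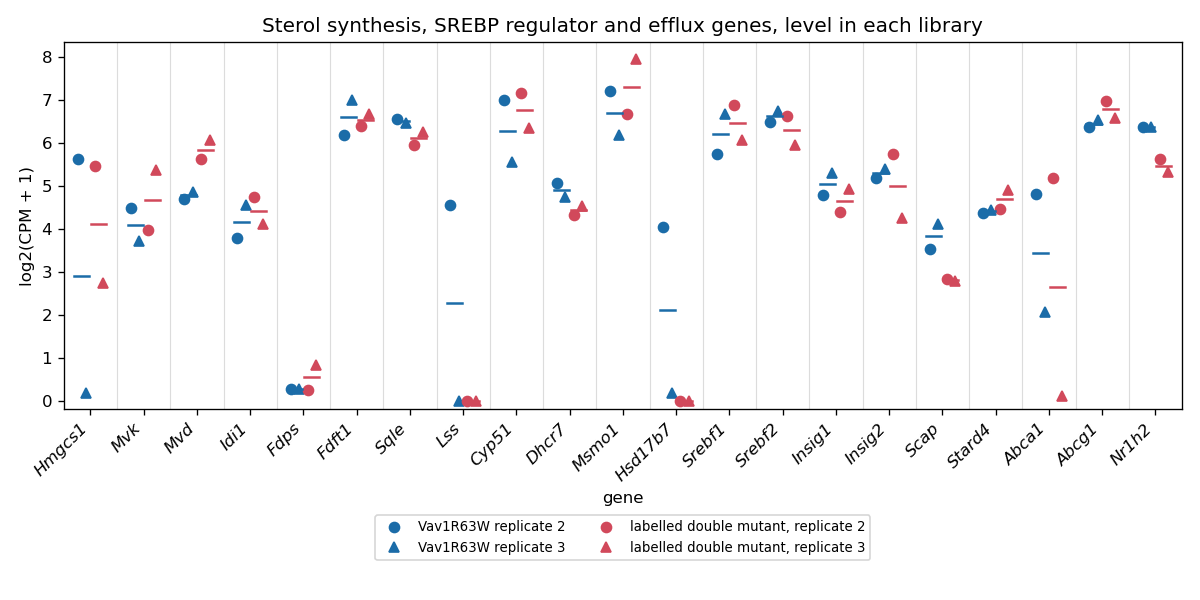
Levels of the 12 sterol synthesis enzymes, 6 regulators and 3 efflux genes as log2(CPM + 1); each symbol is 1 library, blue for Vav1R63W and red for libraries labelled double mutant, circles for replicate 2 and triangles for replicate 3, and short lines are means of 2 libraries. Mvd lies higher and Nr1h2 lower in both red libraries, whereas Hmgcs1, Lss, Hsd17b7 and Abca1 spread widely within a group.

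Fatty acid synthesis held the members with the smallest p, and they differed in opposite directions. Acly (ENSMUSG00000020917; GRCm38 chromosome 11, 100476353 to 100528000, minus strand), ATP citrate lyase, makes the cytosolic acetyl-CoA from which both sterols and fatty acids are built. It had 3613 and 3198 reads in Vav1R63W replicates 2 and 3, against 1814 and 1728 in those labelled double mutant, or 258 and 222 CPM against 114 and 124 CPM. The libraries fell into 2 tight pairs, with means of 240 ± 25.4 and 119 ± 7.10 CPM (SD, n = 2 each). The log2 fold change was -0.99 ± 0.21 (SE; edgeR unadjusted p = 0.00802, adjusted p = 0.900). In the authors' deposited table Acly was called lower, with a log2 fold change of -0.92 and an adjusted p of 0.000754, in a comparison that called 0.826% of genes lower.

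Scd2 (ENSMUSG00000025203; GRCm38 chromosome 19, 44293674 to 44306864, plus strand), a stearoyl-CoA desaturase, puts the double bond into saturated fatty acids. It had 1196 and 888 reads in Vav1R63W replicates 2 and 3, against 2208 and 2575 in those labelled double mutant, or 85.4 and 61.7 CPM against 138 and 184 CPM. Both libraries of the second group were above both of the first, with means of 73.5 ± 16.8 and 161 ± 32.5 CPM (SD, n = 2 each). The log2 fold change was 1.17 ± 0.33 (SE; edgeR unadjusted p = 0.0216, adjusted p = 0.900). The authors' deposited table called Scd2 higher, with a log2 fold change of 0.99 and an adjusted p of 0.0259, in a comparison that called 0.737% of genes higher. Scd1 and Scd3, its close relatives, had 0 reads in all 4 libraries, and 4.01% of the 50-base stretches of Scd2 also occur in other transcripts, those of Scd1 and Scd3 among them.

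DESeq2 run here on the same counts gave adjusted p of 0.0837 for Acly and 0.237 for Scd2, so neither passed in that fit of genotype alone. With any 1 library left out, Acly passed in DESeq2 each time (adjusted p from 0.000181 to 0.0398), and Scd2 passed without Vav1R63W replicate 2 (0.00799) and without the library labelled double mutant, replicate 2 (0.000942), but not without either of the others (0.140 and 0.104). Of all genes, DESeq2 called 6.22% when Vav1R63W replicate 2 was left out and 3.97% when replicate 3 of that group was. It called 20.4% when replicate 2 of the group labelled double mutant was left out and 8.31% when its replicate 3 was, against 1.88% with all 4 libraries. In edgeR the log2 fold change with 1 library left out ran from -1.08 to -0.91 for Acly and from 0.91 to 1.39 for Scd2, never past the threshold (smallest adjusted p = 0.457 for each). The authors' calls, DESeq2 and edgeR use the same reads, so they are not independent of each other. The ratio of Scd2 to Acly in CPM was 0.331 and 0.278 in Vav1R63W replicates 2 and 3, against 1.22 and 1.49 in those labelled double mutant. Taken within each library, it does not depend on scaling between libraries. These are the 2 members with the smallest p, and their directions are opposite. A wide separation of their ratio follows from that choice and adds no support.

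The other genes of fatty acid synthesis were uneven. Fasn, fatty acid synthase, had 941 reads in Vav1R63W replicate 2 and 6 in replicate 3, against 808 and 995 in the libraries labelled double mutant. Only Vav1R63W replicate 3 was low, and the fitted log2 fold change was 0.90 ± 1.95 (SE). Acaca, the acetyl-CoA carboxylase that commits carbon to fatty acids, had 17 and 0 reads against 148 and 5, and 52.6% of its 50-base stretches occur in a processed pseudogene, Gm5182. Elovl6, which elongates saturated chains, had 172 and 509 reads against 389 and 1. The groups overlapped for all 3.

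The groups overlapped for each of the 6 genes of fatty acid oxidation, and 0 passed (edgeR adjusted p = 1.000 for each). Their fitted log2 fold changes ran from -0.40 to 0.41, with 3 positive, 3 negative and a median of -0.02. Their summed level was 500 and 454 CPM in Vav1R63W replicates 2 and 3, against 423 and 469 CPM in those labelled double mutant. Hadhb and Hadha encode the subunits of the mitochondrial trifunctional protein. Hadhb (ENSMUSG00000059447) was at 259 and 284 CPM against 201 and 286 CPM, a log2 fold change of -0.13 ± 0.26 (SE; adjusted p by edgeR = 1.000), and 62.4% of its 50-base stretches also occur in processed pseudogenes. Hadha had 13 and 210 reads against 146 and 104, so it was far below Hadhb in every library.

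Cpt1a (ENSMUSG00000024900), which admits long-chain fatty acids into mitochondria, was at 51.5 and 46.7 CPM in Vav1R63W cells against 47.6 and 80.3 CPM in the libraries labelled double mutant, a log2 fold change of 0.41 ± 0.48 (SE; adjusted p by edgeR = 1.000). Without the library labelled double mutant, replicate 3, that value was -0.05. Cpt2, the inner-membrane partner of CPT1, had 413 and 173 reads against 544 and 1. Acadm, the medium-chain dehydrogenase, ranged from 33.2 to 66.2 CPM. Acadl, the long-chain dehydrogenase, was at 121 and 50.4 CPM against 98.7 and 29.4 CPM, higher in replicate 2 of each group.

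**Figure D3:**
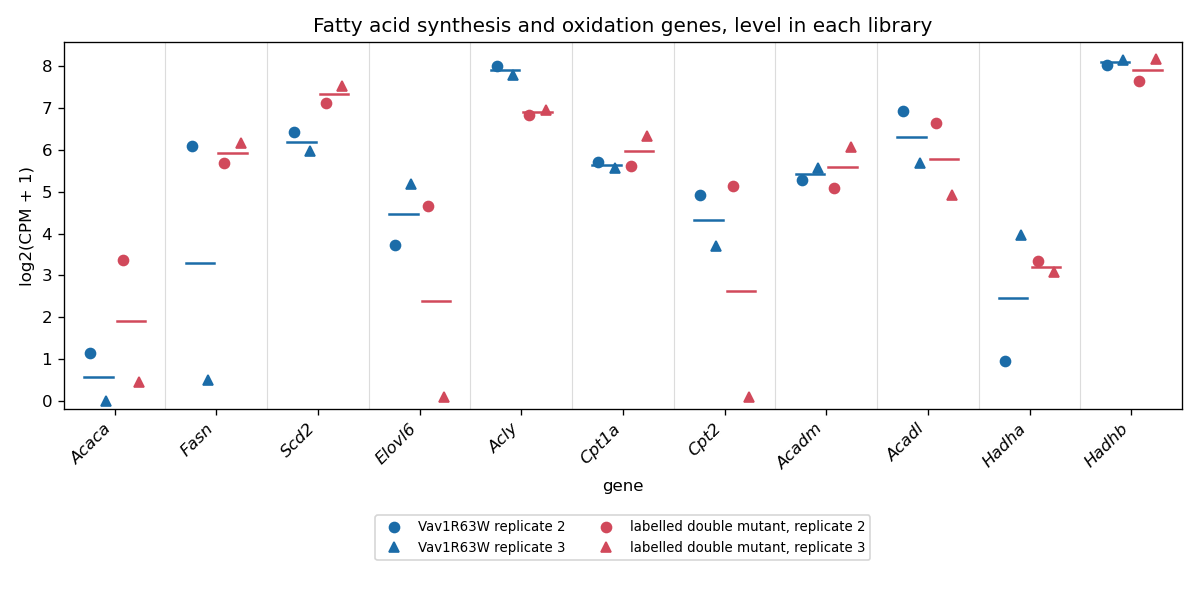
Levels of the 5 fatty acid synthesis and 6 fatty acid oxidation genes as log2(CPM + 1), with symbols, colours and lines for libraries and means of 2 libraries (blue, Vav1R63W; red, labelled double mutant; circles, replicate 2; triangles, replicate 3). Acly is lower and Scd2 higher in both red libraries, and 1 library lies near 0 for Fasn, Elovl6 and Cpt2.

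Levels of different genes were compared as CPM per kilobase of exon, averaged over the 4 libraries. Hadhb was highest at 39.0 ± 6.04, followed by Acadl at 37.3 ± 21.1 and Acly at 34.0 ± 13.6 (SD, n = 4 each). The order of these 3 was not that of each group: in Vav1R63W cells Acly was at 45.5 ± 4.81, Acadl at 42.7 ± 24.9 and Hadhb at 41.2 ± 2.69 (SD, n = 2 each), differences within these spreads. Msmo1 (23.0 ± 12.3), Fdft1 (22.6 ± 5.83), Mvd (22.5 ± 10.3), Cyp51 (22.4 ± 9.87) and Scd2 (21.5 ± 10.1) came next in the mean over 4 libraries and differed from each other by less than these spreads. Fdps at 0.0831, Acaca at 0.159 and Lss at 0.520 stood at the bottom. The shared part of their 50-base stretches was 86.4%, 52.6% and 4.35%, beside 62.4% for Hadhb, the highest in the mean over 4 libraries. The part of shared sequence in these levels was not tested.

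Over the members as a whole, 29 of the 32 had enough reads in enough libraries to be tested (Fdps, Lss and Hsd17b7 did not). edgeR called 0 of the 29, with Acly and Scd2 at an unadjusted p under 0.05. Fold changes of the tested members were positive for 16 and negative for 13, with a median of 0.10 on the log2 scale, against 0.00 over all tested genes. With every gene that had a read included, the median over all 32 was 0.07. The median of the tested members was -0.14 without the library labelled double mutant, replicate 2, where the median over all genes was -0.20, and -0.01 without Vav1R63W replicate 3. With the strand column that held more reads it was -0.05 over the 28 members then tested. The groups did not overlap for 9 of the 29 (4 higher and 5 lower in the libraries labelled double mutant), or 31.0%, near the 33.8% of all tested genes.

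**Figure D4:**
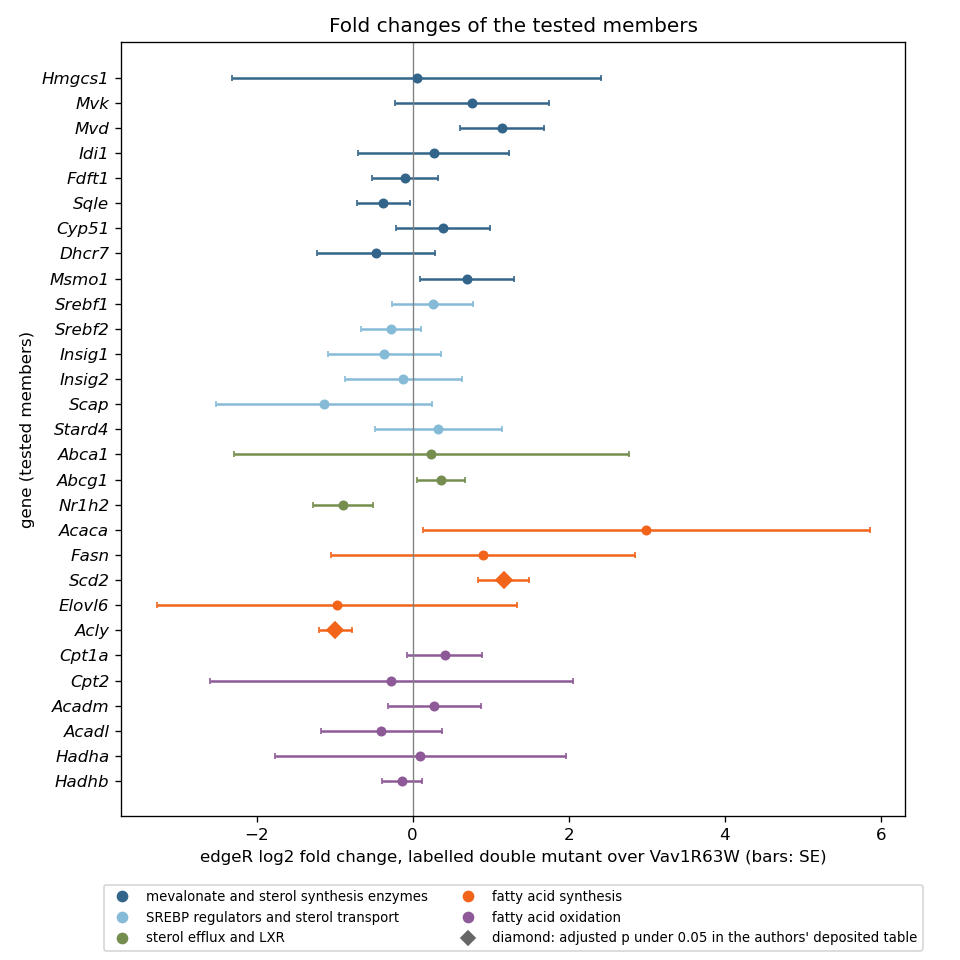
Log2 fold change from edgeR, labelled double mutant over Vav1R63W, with its standard error for the 29 tested genes, coloured by group of genes; diamonds mark genes called in the authors' deposited table. Acly (-0.99) and Scd2 (1.17) are the diamonds, and the bars of Hmgcs1, Abca1, Acaca, Fasn, Elovl6, Cpt2 and Hadha are the widest.

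The difference between group means exceeded the larger gap between libraries of a group, both on the log2(CPM + 1) scale, for 7 genes: Mvd, Sqle, Dhcr7, Scap, Nr1h2, Scd2 and Acly. That is 21.9% of the 32 genes and 24.1% of the 29 tested, beside 21.3% of all tested genes. The largest separation relative to the gap was that of Acly, with a difference of -1.01 and gaps of 0.22 and 0.12. The difference of Scd2 was 1.13 with gaps of 0.46 and 0.41, that of Mvd 1.07 with gaps of 0.14 and 0.45, and that of Nr1h2 -0.91 with gaps of 0.01 and 0.30.

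**Figure D5:**
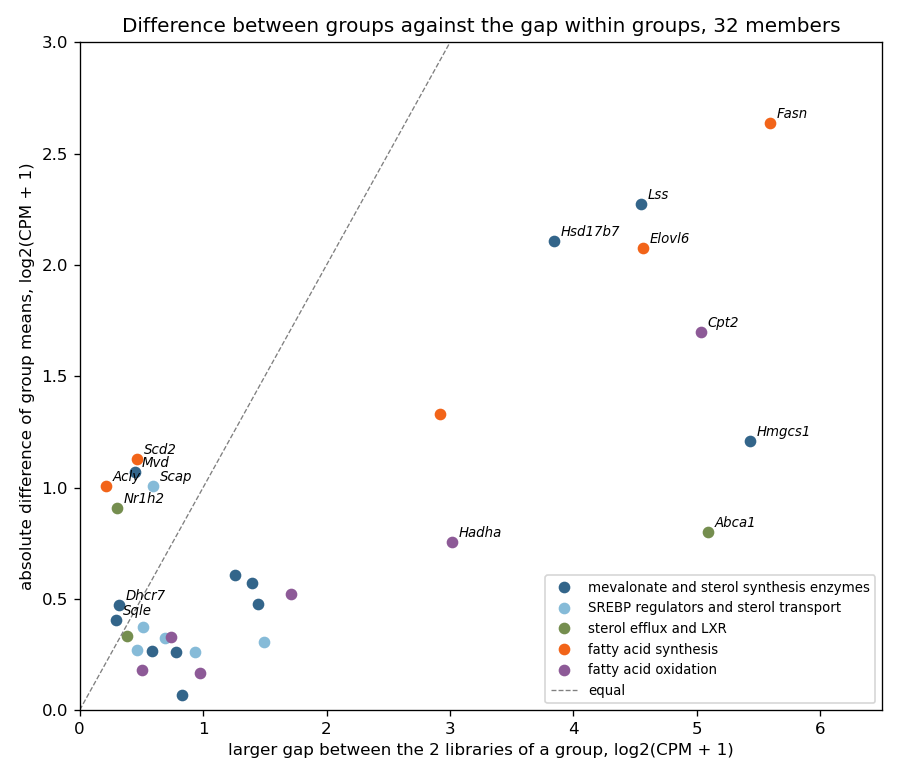
Absolute difference of group means (y axis) against the larger gap between the 2 libraries of a group (x axis), both in log2(CPM + 1), for the 32 genes, with a dashed line where they are equal. Acly, Scd2, Mvd, Scap and Nr1h2 lie well above the line, Dhcr7 and Sqle just above it, and Fasn, Hmgcs1, Abca1 and Cpt2 lie at gaps over 5.

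A recurring pattern was a gene with many reads in some libraries and almost none in another. At most 10 reads in 1 library with over 100 in another was found for 8 of the 32 genes, Hmgcs1, Lss, Hsd17b7, Abca1, Acaca, Fasn, Elovl6 and Cpt2. Of the 29 tested genes 6 met this (20.7%), close to the 21.6% of all tested genes. The low library was Vav1R63W replicate 3 for 5 of the 8 and the library labelled double mutant, replicate 3, for 6, while replicate 2 was low for 0 in Vav1R63W and 2 in the other group. Lss and Hsd17b7, which were not tested, are counted in the 5 and in the 6 and make up the 2. The shares that follow are of tested genes only. Among 9054 tested genes with over 100 reads in some library, 7.32% and 15.4% had at most 10 in those 2 replicates 3, and 5.16% and 5.45% in the replicates 2. The part of RNA quality in this pattern was not tested.

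Beyond the members, 97 further genes of the same pathways were listed in 5 groups, and 77 had enough reads in enough libraries to be tested. edgeR called 0 of the 77, with 2 at an unadjusted p under 0.05, and the groups did not overlap for 28 (36.4%, beside the 33.8% of all tested genes). In the list of sterol sensing, uptake, esterification and efflux, with 18 genes tested and a median log2 fold change of 0.00, Osbpl9, an oxysterol-binding-protein relative, had 1713 and 1964 reads in Vav1R63W cells against 884 and 851 in the others. Both libraries labelled double mutant were below both others, with a log2 fold change of -1.13 ± 0.30 (SE; edgeR unadjusted p = 0.0169, adjusted p = 0.900), and the authors' deposited table called it lower (adjusted p = 0.0108), whereas DESeq2 run here did not (adjusted p = 0.252). Soat1, which esterifies cholesterol for storage, had 536 and 1343 reads against 2249 and 2243, a log2 fold change of 1.21 ± 0.53 (SE; adjusted p by edgeR = 1.000). Soat2, its relative, had 353 reads in the library labelled double mutant, replicate 3, and 0 in the other 3, and DESeq2 called it higher (adjusted p = 4.18e-06) from that library alone.

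Of further sterol synthesis genes 12 were tested, with a median of -0.06. Tm7sf2 and Lbr, both sterol C14-reductases, had 1 and 51 reads against 118 and 199, and 5599 and 6498 against 9674 and 5380. Of prenylation genes 9 were tested, with a median of 0.34. Chm, the Rab escort protein, had 676 and 25 reads against 1179 and 1034, and Rce1, which trims prenylated proteins, had 844 and 988 against 1474 and 1092. None of these passed (edgeR adjusted p = 1.000 for each).

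Of further genes of fatty acid synthesis and desaturation 17 were tested, with a median of -0.19. Elovl1, an elongase of very long chains, had 1356 and 2070 reads against 2699 and 2499, and Hacd3, a dehydratase of chain elongation, had 2106 and 2528 against 1598 and 1772. Of further genes of fatty acid uptake and oxidation 21 were tested, with a median of -0.10. Hadh, the short-chain hydroxyacyl-CoA dehydrogenase, had 2228 and 1721 reads against 1225 and 1323, a log2 fold change of -0.67 ± 0.30 (SE; adjusted p by edgeR = 1.000). Ppargc1b, a coactivator of mitochondrial genes, had 88 and 104 reads in Vav1R63W cells against 0 in both libraries labelled double mutant (edgeR unadjusted p = 0.0221, adjusted p = 0.900). It met the read minimum only through the Vav1R63W libraries, so this p is not support for a difference. DESeq2 did not call it (adjusted p = 0.140).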

How the data were processed

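Per the submitters' processing notes and design text, Trim Galore was used for trimming, STAR for alignment and DESeq2 for the authors' comparison, with Ensembl release 90, whereas the build those notes list is mm9. The deposited files hold raw read counts per gene, and the unstranded column was used because the library kit named in the labels does not mark strand. Summary lines (unmapped, multimapping, no feature, ambiguous; 21.1% to 23.1% of reads) were left out. The authors' deposited table gives the log2 fold change and the p-value of their own comparison, and its 4 columns of normalized values per sample were not used.

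The test was edgeR 4.0.16 (R 4.3.3): TMM, filterByExpr (minimum count 10, minimum total 15), a two-sided robust quasi-likelihood F test of genotype over 4 libraries, with Benjamini-Hochberg adjustment over 10216 genes and a threshold of 0.05. In this filter the minimum count, scaled to library size, had to be reached in at least 2 libraries, the size of a group. Standard errors were derived from the log2 fold change and its F statistic. CPM used the total of reads assigned to genes. A count of 0 was given an upper limit of 3 reads, for counting error only. DESeq2 was version 1.42.0 and limma 3.58.1. The tests were run on simulated counts whose spread between libraries was set, not taken from these data. That run does not show how the tests behave at the spread seen here. Alternatives were other tools, scalings, filters, the strand columns, a replicate term and leaving out each library, DESeq2 with the last 2 being chosen after seeing the data. Symbols, exon lengths and coordinates come from GENCODE M21 (GRCm38) by gene ID, and sequence sharing was counted over 50-base stretches of each gene's longest coding transcript. The members and lists were chosen with earlier results of these data known. Values in every library with a test are given for members that passed in edgeR, DESeq2 or the authors' table or had an unadjusted p under 0.05, those nearly absent from 1 group, the 2 with the smallest p per group of genes, and Srebf1, Srebf2 and Nr1h2; of each further list, those that passed and the 2 with the smallest p. Other members are described by their levels. A further marker of the sort and a marker of another cell type are not reported here.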

Additional observations from a re-analysis of the deposited data

How the results depend on the processing

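edgeR called 0 genes and 0 members with DESeq2 size factors, library totals without TMM, no count filter, a filter of 1 CPM in 2 libraries, the strand column and with each library left out, and limma-voom called 0 of each. DESeq2 called 206 genes and 1 member, Lss, whose reads come from 1 library. The median log2 fold change of the members ranged from -0.14 to 0.18 with 1 library left out. The -0.14 came without the library labelled double mutant, replicate 2, when the median over all genes was -0.20, and the cause was not tested. With the strand column the median was also negative, at -0.05. With 1 library left out, the log2 fold change ran from -0.11 to 1.27 for Msmo1, from -0.18 to 0.83 for Srebf1, from -0.64 to 0.0081 for Srebf2, from -0.047 to 0.75 for Cpt1a and from -0.44 to 0.11 for Hadhb, so each of these changed sign. The other 6 named genes kept their direction in each alternative. A group left with 1 library is assumed to vary like the other group, and its level is that of 1 library. Without the library labelled double mutant, replicate 2, that group had 1 read each for Abca1, Elovl6 and Cpt2, and 245 CPM for Msmo1. Without Vav1R63W replicate 2, the Vav1R63W group had 2 reads for Hmgcs1 and 6 for Fasn. DESeq2 called these genes in those fits, and such calls are not support for a difference between labels. They count in the member shares below.

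In DESeq2 with 1 library left out, chosen after seeing the data, 2 to 8 members were called, and 414 to 2165 genes in all. The 8 (Mvd, Msmo1, Abca1, Nr1h2, Scd2, Elovl6, Acly and Cpt2) were called without the library labelled double mutant, replicate 2, as 26.7% of the 30 members tested, when 20.4% of all 10633 genes tested were called. The other fits called 4 of 29 members (13.8%, beside 6.22% of genes) without Vav1R63W replicate 2, 2 of 31 (6.45%, beside 3.97%) without Vav1R63W replicate 3 and 2 of 31 (beside 8.31%) without the library labelled double mutant, replicate 3.

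The replicate numbers are shared between groups, and the labels do not say that they pair the libraries. In CPM, replicate 2 was the higher library in both groups for Hmgcs1, Cyp51, Abca1, Nr1h2, Acaca, Cpt2 and Acadl. Replicate 3 was the higher in both for Mvd, Fdft1, Insig1, Stard4, Acadm and Hadhb. Deviations of same-numbered libraries from their group means correlated at r = 0.02 across 10216 genes, which are not independent replicates. With a replicate block, edgeR called 0 genes and 0 members (163 genes at an unadjusted p under 0.05), the median of the members was 0.20, and DESeq2 called 500 genes (4.68%) and 2 of 31 members, Acly (adjusted p = 0.00146) and Scd2 (adjusted p = 0.0211), neither of which it called without the block.

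There are only 2 libraries per group. On the log2(CPM + 1) scale the median gap between them was 0.67 over the 32 members, and the median absolute difference between groups was 0.55. Over the 29 tested members these were 0.63 and 0.52, beside 0.78 and 0.50 over all tested genes. The gap is between single libraries and the difference between means of 2, so their sizes are not directly comparable. Since the Themis count of 1 library goes against its label, every comparison is between labels.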
